A study of Mus musculus with 8 samples.

Results

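Collagen chain genes were defined as all genes on the array whose symbol has the form Col, a type number, the letter a and a chain number. This gave 56 of the 25697 probes and 36 of the 18120 gene symbols, among them 9 probes for the 6 type IV chains Col4a1 to Col4a6. They were compared between glomerular isolates of 4 Cd151-/- males and 4 Cd151+/+ males of the FVB/N strain, all 3 weeks of age, with 1 mouse on each of 8 Illumina MouseRef-8 v1.1 arrays. Both groups were untreated as far as the labels say and differed in genotype alone, the Cd151-/- mice carrying a homozygous deletion of Cd151 with no restriction to a cell type stated, and glomeruli were collected from the kidneys with magnetic beads. The comparison asks whether the genes of the collagen family, and of the glomerular basement membrane network in particular, were transcribed differently when the tetraspanin CD151 was missing.

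Collagens are trimers of chains wound into a triple helix, and each chain is the product of its own gene. Type IV collagen is the network-forming collagen of basement membranes. Col4a1 and Col4a2 chains make the network that almost every basement membrane contains, Col4a3, Col4a4 and Col4a5 chains make the network of the mature glomerular basement membrane, which comes from podocytes and is defective in Alport syndrome, and Col4a6 joins Col4a5 in the capsule around the glomerulus. Fibril-forming collagens such as types I and III build the fibres of connective tissue, FACIT collagens attach to the surface of such fibrils, and multiplexins such as types XV and XVIII belong to basement membrane zones. CD151 itself binds laminin-binding integrins, which hold podocytes to this membrane.

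The genes of type IV chains lie in pairs that start next to each other and are read in opposite directions, an arrangement that the choice of members did not use. All 36 collagen symbols were found in the RefSeq gene table of mouse assembly GRCm38.p6, and 29 had an entry in its table of promoters. There, Col4a1 and Col4a2 are neighbours on chromosome 8 whose first bases overlap by 85 bases, and Col4a4 and Col4a3 on chromosome 1 overlap by 114 bases. Only Col4a6 and Col4a5, on chromosome X, are separated, by 1274 bases. The bases just upstream of these last 2 genes are shown because they lie within that gap, 5′ to 3′ on the strand of each gene, with a CCAAT motif in capitals.

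Col4a5, RefSeq, GRCm38.p6, chrX:141475169-141475369, + strand:
Col4a5: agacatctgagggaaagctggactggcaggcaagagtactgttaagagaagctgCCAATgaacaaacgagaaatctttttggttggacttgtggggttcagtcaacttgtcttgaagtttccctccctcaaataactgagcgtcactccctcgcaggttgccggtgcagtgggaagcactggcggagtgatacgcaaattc
Col4a6, RefSeq, GRCm38.p6, chrX:141474096-141474326, - strand:
Col4a6: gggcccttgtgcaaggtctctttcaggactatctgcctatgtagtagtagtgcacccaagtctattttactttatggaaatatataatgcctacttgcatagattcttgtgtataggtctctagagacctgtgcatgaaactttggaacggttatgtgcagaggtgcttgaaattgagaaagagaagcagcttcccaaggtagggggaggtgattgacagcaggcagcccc
Both strands were searched for the GC box GGGCGG, for the CCAAT box and for the TATA box TATAAA, none of which lies within another on either strand. The Col4a5 stretch of 201 bases held the CCAAT box 1 time and neither of the others, and of 32851 RefSeq promoter windows of the same length 28.6% held it, 24.8% the GC box and 9.18% the TATA box. The Col4a6 stretch of 231 bases held none of them. Of windows of that length, 32.3% held the CCAAT box, 30.0% the GC box and 11.8% the TATA box.

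The signal is the mean brightness of the beads of a probe, with the background of each array removed, and is given on a log2 scale after normalisation, so that a difference of 1 is a 2-fold difference in signal. Levels of different probes cannot be set against each other, and only the mice are compared for each probe. Median array signals ranged from 65.7 to 164 before correction, and 11291 to 12359 probes per array were detected, which means that they had a detection p-value of 0.05 or lower. The median detected signal was 3.00 to 4.46 times the background of its array, and Spearman correlations between arrays, across probes, were 0.900 to 0.971. The arrays fell into a set of 4 with a higher background (Cd151+/+ mice 3 and 4, Cd151-/- mice 1 and 2) and a set of 4 with a lower one (Cd151+/+ mice 1 and 2, Cd151-/- mice 3 and 4). Cd151 was detected by its 3 probes in 4 of 4 Cd151+/+ mice and 0 of 4 Cd151-/- mice, and its brightest probe read 14.37 ± 0.24 (SD, n = 4) against 4.57 ± 0.08. Markers of podocytes were present, such as Ptpro, a receptor tyrosine phosphatase of the podocyte surface, at 13.46 ± 0.27 and 13.03 ± 0.42 (SD, n = 4 each), but so were those of proximal tubule, such as Slc34a1, its phosphate transporter, at 14.02 ± 0.77 and 14.49 ± 0.39.

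By the brightest tested probe of each gene, 12 of the 36 collagen genes were detected on all 8 arrays, 15 on 1 to 7 arrays and 9 on no array. Those detected throughout were Col4a1 to Col4a5, both multiplexins Col15a1 and Col18a1, the beaded filament chains Col6a1 and Col6a2, Col5a1, Col12a1 and Col23a1. The 9 without a detected probe were the fibril-forming Col3a1, Col5a2 and Col5a3, the FACIT genes Col9a2, Col9a3 and Col19a1, the short-chain genes Col8a2 and Col10a1, and the transmembrane Col13a1. No collagen gene was detected in every mouse of one genotype and in no mouse of the other. Col14a1, Col17a1 and Col28a1 were detected in some Cd151-/- mice and no Cd151+/+ mouse, and Col11a1, Col1a2 and Col24a1 in 1 Cd151+/+ mouse and no Cd151-/- mouse. For Col25a1 the probes differed, the brightest being detected in 2 Cd151-/- mice and no Cd151+/+ mouse and another in 1 Cd151+/+ mouse and no Cd151-/- mouse.

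**Figure D1:**
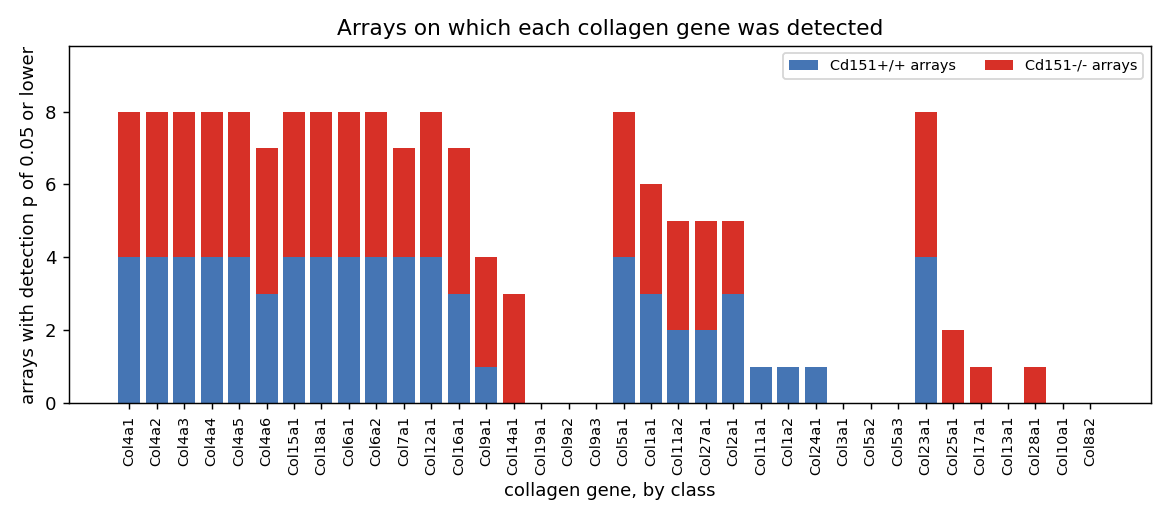
Number of arrays, of 4 per genotype, on which each of the 36 collagen genes had a detection p-value of 0.05 or lower (y axis, stacked by genotype; for genes with several probes, the brightest tested one). Of these genes 12 reached all 8 arrays and 9 none, and the bar of Col14a1 holds Cd151-/- arrays only.

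Across the family no difference between the genotypes passed the test. The 34 collagen probes detected on at least 1 array, from 27 genes, were tested with limma together with all other such probes, 14967 in all. After Benjamini-Hochberg adjustment 0 of the 34 passed a threshold of 0.05, where 5 of all probes (0.0334%) did. At an unadjusted p below 0.05, 1 collagen probe was higher in Cd151-/- glomeruli (Col14a1), against 1.69% of all probes, and 0 were lower, against 2.61%. For 0 of the 34 did the values of the genotypes fail to overlap, against 2.31% of all probes. Without Cd151+/+ mouse 3, 3 of 34 collagen probes passed the unadjusted threshold, against 5.26% of all probes. Without Cd151-/- mouse 3 it was 3 of 33, against 9.42%. Omitting mouse 4 gave 2 of 33 for Cd151+/+, against 6.63%, and 2 of 32 for Cd151-/-, against 3.22%. Omitting Cd151-/- mouse 1 gave 2 of 33, against 2.3%.

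With the brightest tested probe for each gene, 15 collagen genes had a higher and 12 a lower mean in Cd151-/- mice, and the median log2 fold change was 0.04, with the central part of the genes between -0.16 and 0.19 (quartiles). Over all 11240 genes tested the median was -0.0018, the quartiles were -0.21 and 0.21, and 49.7% had the higher mean in Cd151-/- mice. The size of the difference without its sign was 0.17 at the median for collagens and 0.21 for all genes. Scaling the arrays to their 75th percentile in place of quantile normalisation gave 10 higher and 17 lower collagen genes and a median of -0.11. The median over all tested probes was -0.07 under that scaling and -0.0073 in the main analysis. The balance of directions thus depended on the scaling. By the probe taken, Col14a1, Col17a1, Col25a1 and Col28a1 entered the test through Cd151-/- arrays alone, and all were counted as higher. Col11a1, Col1a2 and Col24a1 entered through Cd151+/+ arrays alone, and all were counted as lower. With all 36 collagen genes taken without the filter on detection, 21 were higher and 15 lower, with a median of 0.04. Over the 12 genes detected on all arrays, 5 were higher and 7 lower, with a median of -0.15.

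**Figure D2:**
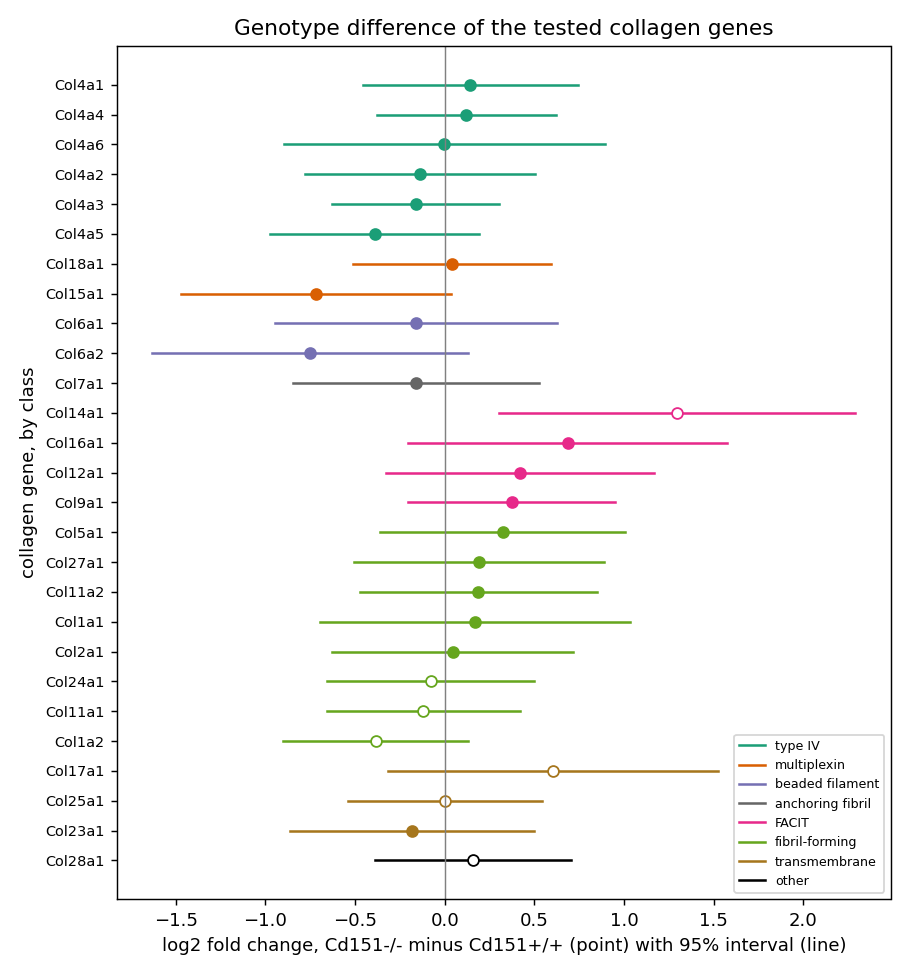
Log2 fold change (Cd151-/- minus Cd151+/+, x axis) with its 95% interval from limma for the 27 tested collagen genes, grouped and coloured by class. Open points mark genes that no array of one genotype detected, and only the interval of Col14a1 leaves out 0.

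No type IV chain differed between the genotypes beyond the spread of the mice. Of the 6 genes, Col4a1 and Col4a4 had a higher and the other 4 a lower mean in Cd151-/- mice, with a median log2 fold change of -0.07, and their limma adjusted p-values ran from 0.918 to 0.999. The numbers of genes in each direction were the same under each of the 4 other ways of correcting and scaling the signal, but 1 to 4 of the 6 were higher when single mice were left out.

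Col4a1, a chain of the general basement membrane network, read 14.11, 13.86, 13.69 and 13.41 in Cd151+/+ mice 1 to 4 and 13.85, 13.84, 14.54 and 13.41 in Cd151-/- mice 1 to 4. The lowest value was alike in both genotypes and Cd151-/- mouse 3 was the highest of all. The log2 fold change was 0.14 (SE 0.27, 95% interval -0.46 to 0.74), with an exact permutation p of 0.714. Its partner Col4a2 read 13.84, 14.06, 13.13 and 13.42 in Cd151+/+ and 13.25, 13.35, 14.15 and 13.15 in Cd151-/- mice. Cd151-/- mouse 3 was again the highest, and the other Cd151-/- mice lay within the Cd151+/+ range. The difference was -0.14 (SE 0.29, 95% interval -0.78 to 0.50), with an exact permutation p of 0.771.

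The 3 chains of the mature glomerular network were likewise within the spread of the mice. Col4a3 read 12.48, 12.72, 12.33 and 12.47 in Cd151+/+ and 12.19, 12.56, 12.56 and 12.04 in Cd151-/- mice, a difference of -0.16 (SE 0.21, 95% interval -0.63 to 0.30) with an exact permutation p of 0.343. Cd151-/- mice 1 and 4 lay below every Cd151+/+ mouse and mice 2 and 3 within their range. Col4a4 read 11.17, 11.07, 10.87 and 10.68 in Cd151+/+ and 10.82, 10.98, 10.96 and 11.51 in Cd151-/- mice. Here Cd151-/- mouse 4, the lowest for Col4a3, was the highest, and the difference was 0.12 (SE 0.23, 95% interval -0.38 to 0.62) with an exact permutation p of 0.60, while a dimmer probe for Col4a4 gave -0.08. Col4a5 read 11.69, 11.27, 10.77 and 10.94 in Cd151+/+ and 10.58, 10.73, 11.25 and 10.54 in Cd151-/- mice. The Cd151-/- mice 1, 2 and 4 were below all Cd151+/+ mice, and mouse 3 was above 2 of them. Its difference of -0.39 (SE 0.26, 95% interval -0.97 to 0.19), a 1.31-fold lower mean, had an exact permutation p of 0.171. It was the one furthest from 0 among the type IV chains with all mice included, but fell to -0.21 without Cd151+/+ mouse 1, where Col4a1 differed by 0.26, and to -0.31 without Cd151-/- mouse 4, where Col4a1 differed by 0.31.

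Col4a6, the chain of the capsule, was detected in 3 of 4 controls and in all 4 Cd151-/- mice. It read 7.10, 6.65, 5.22 and 6.48 in Cd151+/+ mice, mouse 3 not being above background, and 5.94, 6.38, 7.14 and 5.98 in Cd151-/- mice. The means of 6.364 and 6.362 differed by -0.0022 (SE 0.41, 95% interval -0.90 to 0.89), with an exact permutation p of 0.971, and the genotypes overlapped over nearly the whole range of the Cd151-/- mice. Of its other probes, 1 was detected in 1 Cd151-/- mouse only, with a difference of 0.14, and 1 in no mouse.

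**Figure D3:**
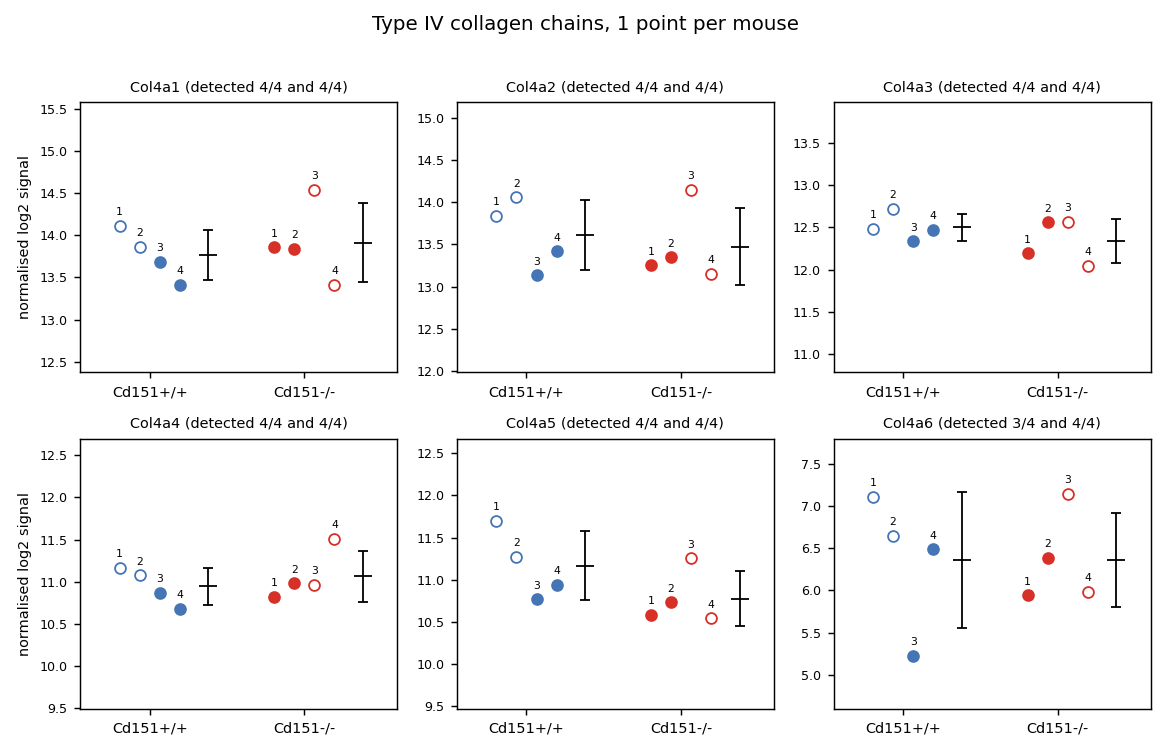
Normalised log2 signal (y axis) of the 6 type IV chains, 1 point per mouse with its number, filled for higher-background and open for lower-background arrays, with the mean ± SD of each genotype (n = 4) in black. The genotypes overlap in every panel, and Cd151-/- mouse 3 is the highest point for Col4a1, Col4a2 and Col4a6.

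To describe the mature network against the general one within each mouse, the mean log2 signal of Col4a1 and Col4a2 was subtracted from that of Col4a3, Col4a4 and Col4a5. Only differences between mice have a meaning on this scale, and no test was made. The values were -2.20, -2.27, -2.09 and -2.05 in Cd151+/+ mice 1 to 4 and -2.36, -2.17, -2.75 and -1.91 in Cd151-/- mice 1 to 4. The Cd151-/- mice held both the lowest value, in mouse 3, and the highest, in mouse 4, and their mean of -2.30 ± 0.35 (SD, n = 4) differed by -0.147 from the -2.15 ± 0.10 of the controls.

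Cell types of the isolate are part of every such level, because fewer cells of a type and less RNA per cell cannot be told apart in bulk RNA. The mean level of the 6 tested podocyte markers, of 7 on the array, spanned 12.04 to 12.44 in controls against 11.61 to 12.42 in Cd151-/- mice, with the lowest in Cd151-/- mouse 4. All 6 had a lower mean in Cd151-/- mice, and none passed the limma test. That of 6 glomerular endothelial markers spanned 10.57 to 11.41 against 10.04 to 11.28, again with 6 of 6 lower and none past the test. Kdr, among these 6, entered the test through Cd151+/+ arrays alone, and Plat of the endothelial list was detected on no array. The part of cell composition in the collagen levels was not tested.

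Outside type IV, the collagen with the smallest p was Col14a1, a FACIT collagen of fibril surfaces. It was not above background in any Cd151+/+ mouse, at 4.95, 5.16, 5.25 and 5.16, and read 5.84, 5.15, 7.38 and 7.33 in Cd151-/- mice 1 to 4. The high values were those of Cd151-/- mice 3 and 4, with mouse 1 lower but detected and mouse 2 undetected and within the Cd151+/+ range. On this scale the Cd151-/- mean was 2.06-fold higher, from 3 of 4 detected mice. It was set against the lowest detected signal on each Cd151+/+ array, or the signal of the probe itself where that was higher. The undetected Cd151-/- mouse 2 was taken at its own signal, so this is not a strict lower bound. The fitted log2 fold change was 1.30 (SE 0.45, 95% interval 0.30 to 2.29), with an unadjusted p of 0.0154 and an adjusted p of 0.918 in limma and an exact permutation p of 0.114. Its size depended on the correction. It was 0.63 without background correction, 0.86 with an offset of 50 and 0.86 under scaling to the 75th percentile. The last had an unadjusted limma p of 0.141, and all 3 values correspond to less than a 2.06-fold difference. With single mice left out it ranged from 1.01, without Cd151-/- mouse 3, to 1.64. Within the set of higher-background arrays the difference was 0.29 and within the lower-background set, which holds Cd151-/- mice 3 and 4, it was 2.30.

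The other 3 FACIT collagens tested also had higher means in Cd151-/- mice, and none of them passed the unadjusted threshold. Col14a1 had entered the test through Cd151-/- arrays alone, and with all 7 FACIT genes of the array taken without the filter on detection, 6 were higher, with a median of 0.37. Col16a1 differed by 0.68 (SE 0.40), Col12a1 by 0.42 (SE 0.34) and Col9a1 by 0.37 (SE 0.26). Col16a1 is given per mouse because of its value with the array sets as a block, seen after the fit. It read 4.84, 5.57, 6.65 and 5.61 in Cd151+/+ and 6.91, 6.86, 5.97 and 5.68 in Cd151-/- mice. Its levels were highest in the 2 Cd151-/- mice on higher-background arrays, with Cd151+/+ mouse 3 next, and Cd151+/+ mouse 1 was not above background.

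Most fibril-forming collagens were detected on only part of the arrays or on none. Of 11 genes on the array 8 were tested, of which 5 were higher and 3 lower with a median of 0.11. Under the 75th percentile scaling, where the median over all tested probes was -0.07, 2 were higher and 6 lower. The 3 lower ones in the main analysis, Col1a2, Col11a1 and Col24a1, had entered the test through Cd151+/+ arrays alone. With all 11 taken without the filter on detection, 8 were higher, with a median of 0.10. Col5a1, a chain that sets fibril diameter, was the only one detected on all arrays and differed by 0.32 (SE 0.31). Col1a1, the main chain of type I collagen, was detected in 3 of 4 mice of each genotype and differed by 0.17 (SE 0.39). Its partner Col1a2 had the smallest p of the class, and was detected in Cd151+/+ mouse 1 alone. It read 5.78, 5.13, 5.05 and 4.91 in Cd151+/+ and 4.68, 4.84, 4.99 and 4.82 in Cd151-/- mice, a fitted difference of -0.39 (SE 0.23) with an exact permutation p of 0.0571. Only the 1 detected value stood clearly apart, and the genotypes overlapped at the level of the background.

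Basement membrane zone collagens included the gene furthest below the controls after Col6a2. Col15a1, the multiplexin of type XV, read 10.42, 11.46, 10.26 and 10.27 in Cd151+/+ and 9.36, 9.78, 10.63 and 9.78 in Cd151-/- mice. The Cd151-/- mice 1, 2 and 4 were below every control, and mouse 3 above 3 of them. The difference was -0.72 (SE 0.34, 95% interval -1.47 to 0.04), a 1.64-fold lower mean, with an exact permutation p of 0.114 and a limma adjusted p of 0.918, and it was -0.70 and -0.74 within the higher- and lower-background sets. Without Cd151+/+ mouse 2, the highest of all, it was -0.43, with an unadjusted limma p of 0.197. Col18a1, the type XVIII chain that carries endostatin, differed by 0.04 (SE 0.25, 95% interval -0.51 to 0.59) on its brightest probe and by -0.21 on another.

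Col6a2, a chain of the beaded filaments of type VI collagen, read 8.18, 8.07, 6.83 and 6.64 in Cd151+/+ and 6.34, 6.45, 7.47 and 6.46 in Cd151-/- mice. The difference was -0.75 (SE 0.40, 95% interval -1.63 to 0.13) with an exact permutation p of 0.171, and was -0.34 and -1.16 within the higher- and lower-background sets. Mice 1, 2 and 4 of the Cd151-/- group were below all controls, and mouse 3 lay between them. Its partner Col6a1 differed by -0.16 (SE 0.36) on its brightest probe and by -0.08 on another. Col7a1, of the anchoring fibrils of skin, read 6.43, 6.23, 5.37 and 5.68 in Cd151+/+ and 5.33, 6.22, 6.15 and 5.36 in Cd151-/- mice, with Cd151-/- mouse 4 not above background. The genotypes overlapped over most of that range, and the difference was -0.16 (SE 0.31) with an exact permutation p of 0.514.

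Col17a1, the transmembrane collagen of hemidesmosomes, stood out in 1 animal. It was not above background in any Cd151+/+ mouse, at 5.17, 4.93, 4.65 and 4.64, and read 5.12, 4.88, 4.88 and 6.92 in Cd151-/- mice. Only Cd151-/- mouse 4 was detected on this probe, and the same mouse was the highest on both other Col17a1 probes, at 5.99 and 5.46. With the Cd151+/+ mice taken as for Col14a1, the Cd151-/- mean was 1.05-fold higher on this probe, with 1 of 4 mice detected. The undetected Cd151-/- mice were taken at their own signal, so this is not a strict lower bound. On both other probes the same ratio was 0.92 and 0.70, a lower Cd151-/- mean. The fitted difference of 0.60 (SE 0.42) on the brightest probe had an exact permutation p of 0.314. Col28a1, detected in Cd151-/- mouse 3 alone, read 4.88, 4.65, 5.20 and 4.52 in Cd151+/+ and 4.85, 4.76, 5.49 and 4.76 in Cd151-/- mice, with an exact permutation p of 0.543. The transmembrane collagens Col23a1 and Col25a1 differed by -0.18 (SE 0.31) and 0.0012 (SE 0.24).

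**Figure D4:**
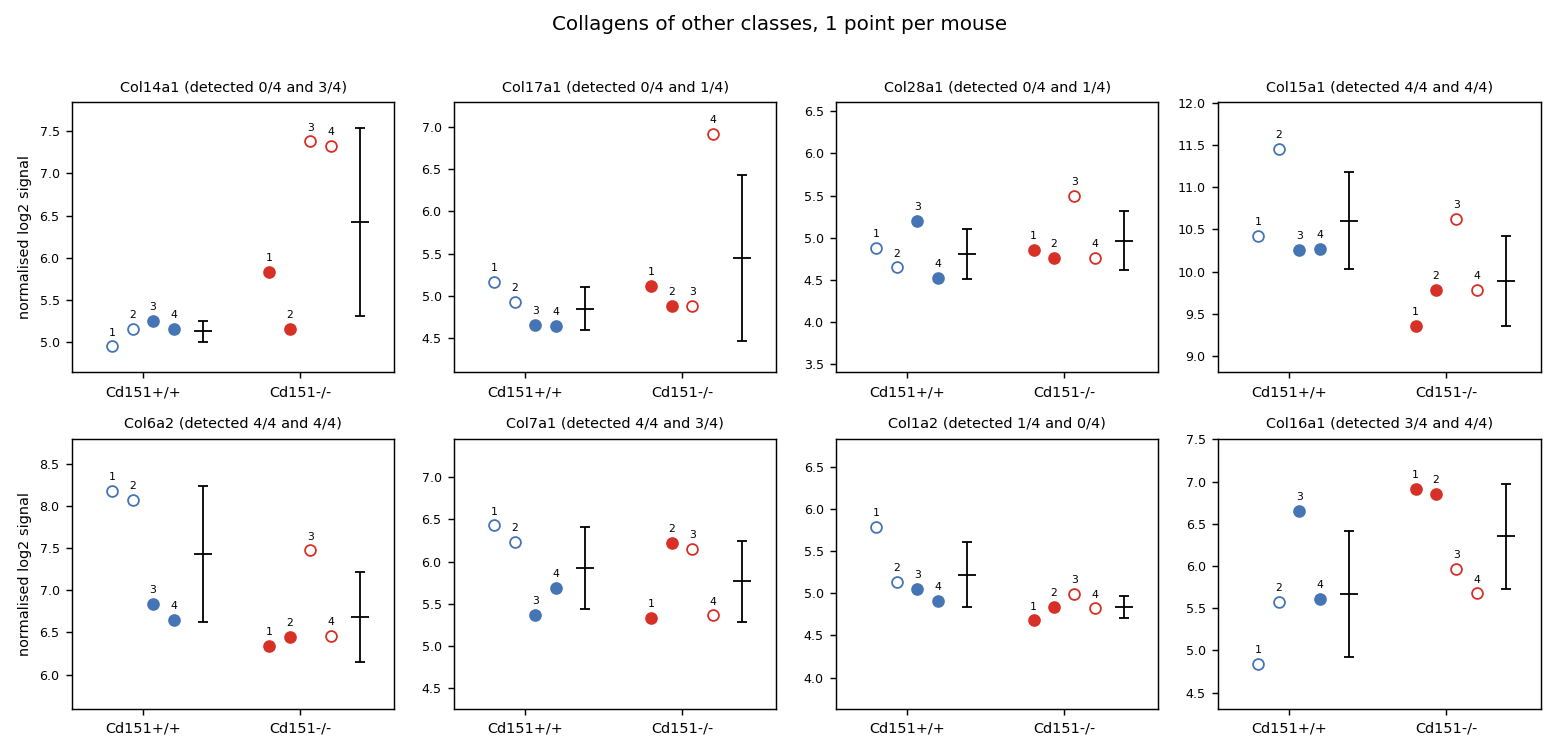
Normalised log2 signal (y axis) of 8 collagens of other classes, 1 point per mouse with its number, filled for higher-background and open for lower-background arrays, with the mean ± SD of each genotype (n = 4) in black. Col14a1 is high in Cd151-/- mice 3 and 4, at 7.38 and 7.33, and Col17a1 in Cd151-/- mouse 4 alone, at 6.92.

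Marker levels of other cell types were read in the same mice. The mean of the 4 tested fibroblast markers, of 7 on the array, spanned 7.62 to 8.21 in controls against 7.54 to 8.38 in Cd151-/- mice. In Cd151-/- mice 3 and 4, the 2 highest for Col14a1, it was 7.89 and 7.54. Dpt, Lum and Mfap5 of that list were detected on no array. Of the 4 tested, 3 had a higher and 1 a lower mean in Cd151-/- mice, from -0.30 for Pi16 to 0.67 for Dcn, the small proteoglycan decorin, and none passed the test. The mean of the 5 proximal tubule markers on the array spanned 9.52 to 10.75 against 10.30 to 11.37, with 5 of 5 higher in Cd151-/- mice and none past the test. Lrp2, among these 5, entered the test through Cd151-/- arrays alone. The highest mean of the proximal tubule list was in Cd151-/- mouse 4, the one with detected Col17a1. The mean of 3 parietal epithelial markers spanned 7.75 to 8.38 against 7.97 to 8.57, also highest in that mouse. Of 6 mesangial and smooth muscle markers, 2 were higher and 4 lower, with a mean level of 9.46 to 9.73 against 8.78 to 9.92, lowest in Cd151-/- mouse 4. Among them, Acta2, smooth muscle actin, differed by 0.71 (SE 0.26) and Pdgfrb, the receptor of mesangial cells for platelet-derived growth factor, by -0.74 (SE 0.32), with unadjusted limma p-values of 0.0185 and 0.0399 and an adjusted p of 0.918 for both. The 4 tested erythroid markers, of 5 on the array, all had a lower mean in Cd151-/- mice, with a mean level of 9.65 to 9.96 against 8.10 to 10.11, lowest in mouse 4 and highest in mouse 2. Hbb-b1, among these 4, entered the test through a Cd151-/- array alone and differed by only -0.02. Alas2, the heme synthesis enzyme of erythroid cells, differed by -2.57 (SE 0.74) and the globin Hba-a1 by -0.69 (SE 0.27), with unadjusted limma p-values of 0.00519 and 0.0276 and an adjusted p of 0.918 for both. The 4 tested leukocyte markers, of 7 on the array, had 3 higher and 1 lower mean, none past the test. The part of these levels in the collagen values was not tested.

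Single animals stood apart from the others across the family. Of the 27 tested collagen genes, Cd151-/- mouse 3 was the highest of the 8 mice for 9, and the other mice for 1 to 5 each. The median distance of its collagen genes from the mean over all mice was 0.34, and that of Cd151-/- mouse 4 was -0.29, the highest and the lowest of the 8. For the 6 type IV chains these were 0.44 and -0.39. The SD was larger in Cd151-/- mice for 13 genes and in Cd151+/+ mice for 14.

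Collagen signals also differed between the sets of arrays. Independent of genotype, 25 of the 34 tested collagen probes were lower on the higher-background arrays, against 7843 of all 14967 probes. The median was -0.32 against -0.04 for all probes. For this difference, 2 of the 34 (5.88%) passed an adjusted limma p of 0.05, against 23.9% of all probes. These were Col6a2, by -0.98, and Col16a1, by 0.99. With the set as a block in the fit for genotype, 2 collagen probes were higher in Cd151-/- mice at an unadjusted p below 0.05, against 5.21% of all probes, and 2 were lower, against 6.08%. The higher ones were Col14a1 and Col16a1 and the lower ones Col15a1 and Col6a2, and the smallest adjusted p from limma was 0.356, for Col14a1. Each set holds 2 mice of each genotype, and the labels name no batch for it.

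Within the sets, 13 of the 27 genes had the same direction in both, 8 higher and 5 lower in Cd151-/- mice, and 14 had opposite directions. The median difference was 0.14 on the higher-background arrays and -0.06 on the lower-background arrays. For type IV chains 4 of 6 were higher on the first and 1 of 6 on the second, with medians of 0.08 and -0.30. Col15a1, Col6a2, Col14a1, Col16a1 and Col17a1, the genes furthest from 0 over all mice, each kept their direction in both sets. The difference over all mice is the mean of the within-set differences. The shared direction of genes picked for a large difference is therefore no independent support.

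**Figure D5:**
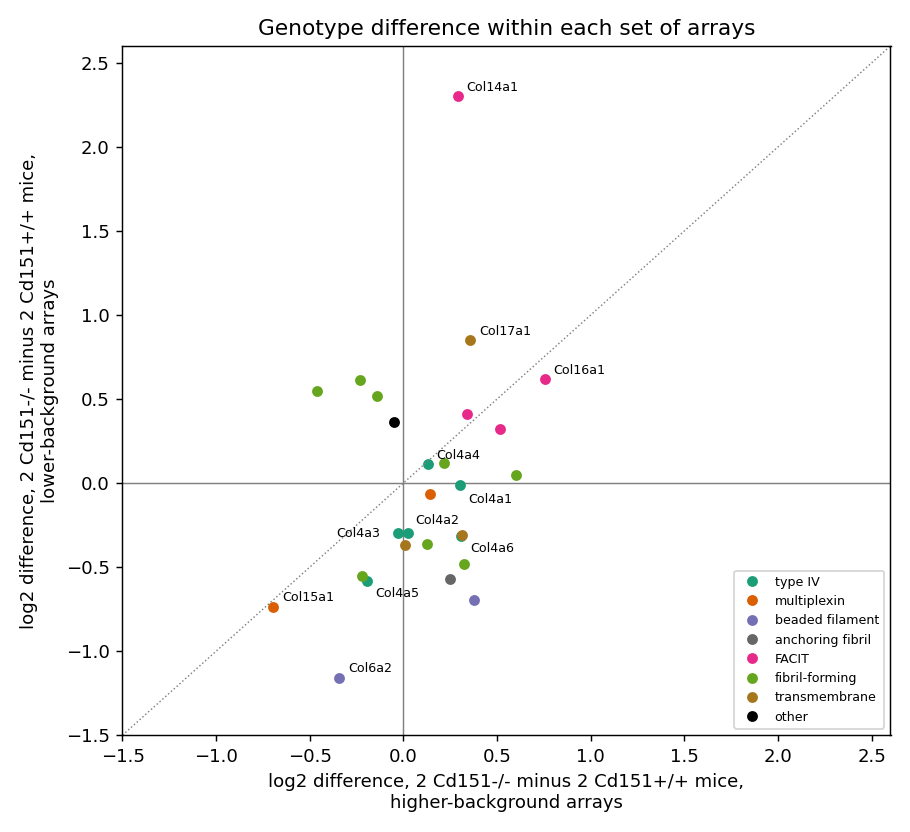
Difference in mean log2 signal between 2 Cd151-/- and 2 Cd151+/+ mice on the higher-background arrays (x axis) and the lower-background arrays (y axis) for the 27 tested collagen genes, coloured by class, with equality as a dotted line. Col14a1 lies at 0.29 and 2.30, and 5 of the 6 type IV chains lie below 0 on the y axis.

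Genes that make and mature collagen were compared beside the chains. Of 32 listed, 29 were on the array and 25 were tested, of which 9 had a higher and 16 a lower mean in Cd151-/- mice, with a median of -0.04. Pcolce2, among the higher, entered the test through a Cd151-/- array alone, and Mia3, among the lower, through a Cd151+/+ array alone. None of the 25 passed the adjusted threshold. At an unadjusted p below 0.05, 2 were higher and 1 lower. Of all 11240 genes tested, 213 were higher and 278 lower at that threshold, and the shares of all probes were the 1.69% and 2.61% given above. Loxl1, a lysyl oxidase-like enzyme best known for elastic fibres, read 10.52, 10.29, 9.96 and 10.26 in Cd151+/+ and 9.67, 9.91, 9.79 and 9.10 in Cd151-/- mice. All Cd151-/- values were below all Cd151+/+ values, and the genotypes likewise failed to overlap for 2.31% of all probes. The difference was -0.64 (SE 0.24), with an unadjusted p of 0.0212 and an adjusted p of 0.918 in limma. The exact permutation p was 0.0286, the smallest this design allows. Loxl2, an enzyme that crosslinks type IV collagen, read 7.09, 6.45, 7.56 and 7.09 in Cd151+/+ and 8.24, 7.85, 7.51 and 7.31 in Cd151-/- mice. The genotypes overlapped by Cd151+/+ mouse 3 alone, and the difference was 0.68 (SE 0.29), with an exact permutation p of 0.0857. Adamts2, which removes the amino-terminal propeptide of fibril-forming procollagens, read 8.95, 8.43, 7.51 and 7.40 in Cd151+/+ and 8.84, 8.93, 9.04 and 8.49 in Cd151-/- mice. Its low values were those of Cd151+/+ mice 3 and 4. The difference of 0.75 (SE 0.34) was 1.43 on the higher-background and 0.08 on the lower-background arrays, with an exact permutation p of 0.143. The unadjusted limma p was 0.049989, only just below the threshold.

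Collagen receptors gave no difference past the test. Of 11 listed, 9 were on the array and 6 were tested, with 4 higher and 2 lower in Cd151-/- mice and a median of 0.16. The 3 with the smallest p were all alpha chains of collagen-binding integrins. Itga11 differed by 0.65 (SE 0.40), Itga2 by 0.43 (SE 0.27) and Itga1 by 0.32 (SE 0.30), with exact permutation p-values of 0.257, 0.143 and 0.371. The ranges of the genotypes overlapped for each of them.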

How the data were processed

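Glomerular RNA of 8 mice was amplified, biotin-labelled, hybridised to Illumina MouseRef-8 v1.1 arrays and read with the BeadArray Reader. The authors deposited a table, exported from GenomeStudio, of signal intensity, the mean bead brightness of each probe, neither background-subtracted nor normalised. A detection p-value is deposited with every signal and gives the share of negative-control probes that were no dimmer. The study's cubic spline normalised values were not used here. Groups came from the sample labels.

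In R 4.3.3, limma 3.58.1 corrected and quantile-normalised the intensities with neqc (offset 16) and fitted Cd151-/- minus Cd151+/+ with lmFit and eBayes over the 14967 probes that 1 or more arrays detected (detection p-value up to 0.05), with Benjamini-Hochberg adjustment. Exact permutation tests were two-sided over 70 relabelings and cannot fall below 0.0286. Of several probes of a gene, the one with the highest mean was taken. Values per mouse were given for type IV chains, for collagens past an unadjusted p of 0.05 or without overlap, and for the gene of smallest p in each class, and the 3 genes of smallest p were named from the lists for collagen maturation and receptors. The members, lists and the split by array background were chosen with earlier results of these data known. The procedure was tested on simulated data. Alternatives were no background correction, an offset of 50, a cubic spline through 15 quantiles, scaling to the 75th percentile, testing all probes, testing those detected throughout a group, blocking on the mouse number or the background set, the mean over probes and each mouse left out. The number of arrays limits the precision. The genome build of the probes is not given in the sources used here, and the RefSeq tables served for neighbourhood and upstream sequence only. The single values of 2 marker genes are not reported here.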

Additional observations from a re-analysis of the deposited data

Results flagged for a closer look

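In each genotype, a mouse was marked where its distance to the nearest other mouse took up nearly the whole range of the 4 values by Dixon's criterion. This was so for 5 of 56 groups of 4 mice examined (27 collagen genes and the type IV network difference, in both genotypes), where chance marks about 1 in 20. Cd151-/- mouse 3 was high for Col6a2, at 7.47, and for Col28a1, at 5.49. Cd151-/- mouse 4 was high for Col17a1, at 6.92. Cd151+/+ mouse 2 was high for Col15a1, at 11.46, and Cd151+/+ mouse 4 was low for Col5a1, at 8.30. No cause was tested.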

How the results depend on the processing

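The number of collagen probes past an adjusted p of 0.05 stayed 0 under all 16 alternatives, with a smallest adjusted p from limma of 0.309, without Cd151-/- mouse 2. The number past an unadjusted p of 0.05 was 1 in the main analysis and 0 with scaling to the 75th percentile. It was 0 with detection on all arrays of a group, under which Col14a1 was not tested. With the background set as a block it was 4. The shares of all probes in these settings were 4.3%, 2.6%, 5.17% and 11.3%, in that order. With each mouse left out the collagen number ranged from 1 to 3, against 2.3% to 9.42% of all probes. It was 3 when mouse 3 of either genotype was omitted and 2 when mouse 4 of either genotype or Cd151-/- mouse 1 was omitted. Col28a1 changed direction under scaling to the 75th percentile (-0.17). With each mouse left out, the log2 fold change ranged from -0.38 to 0.25 for Col4a6, from -0.35 to 0.0038 for Col7a1, from -0.36 to 0.012 for Col4a2, from -0.067 to 0.31 for Col4a1 and from -0.025 to 0.20 for Col4a4, each crossing 0. Col4a3 ranged from -0.24 to -0.065, lowest in size without Cd151-/- mouse 4. Without background correction the log2 fold change was 0.63 for Col14a1, -0.18 for Col1a2, -0.48 for Col6a2 and 0.30 for Col17a1, each over 1.5 times smaller in size than in the main analysis. The median over collagen genes ranged from -0.14 to 0.12 and that over type IV chains from -0.26 to 0.07 over 17 alternatives, within the spread between mice. The causes of these shifts were not tested. The main fit did not treat the mouse numbers as pairs. Same-numbered mice of the genotypes deviated with correlations of -0.58, -0.40, -0.53 and -0.0086 across probes. They always lay in opposite background sets, so these correlations cannot tell whether the animals were paired. With the mouse number as a replicate block, the unadjusted count was 1 and the adjusted count 0, as without that block. Of all probes, 2.81% passed the unadjusted threshold with it. A probe near the array background has little room to show a lower level, which limits the 15 genes detected on only 1 to 7 arrays.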
